A study of Homo sapiens and Mus musculus with 17 samples.

Results

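Secretory and membrane proteins enter the endoplasmic reticulum (ER) through a small set of membrane complexes, and the mRNAs of 10 of their subunits are described here in cells and tissue labelled as knockouts of SEL1L or HRD1, proteins of ER-associated degradation (ERAD). The signal recognition particle (SRP) brings a ribosome with its nascent chain to the SRP receptor, the SEC61 channel lets the chain cross the membrane, the translocon-associated protein (TRAP) complex beside the channel helps chosen substrates to enter, and the signal peptidase complex cuts the signal peptide off. Cells that secrete much make these subunits in large amounts, and they are known targets of the unfolded protein response, whose factors XBP1 and ATF6 act on the promoters of many ER genes. SEL1L and HRD1 form a ubiquitin ligase complex that removes misfolded proteins from the same membrane.

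The 10 genes were SRPRB (SRP receptor), SEC61A1 and SEC61B (channel), SSR1, SSR2, SSR3 and SSR4 (TRAP complex), and SPCS1, SPCS2 and SPCS3 (signal peptidase complex). They were picked by symbol, ignoring case, among 62714 genes of the human table and 55491 genes of the mouse table, and each symbol was found once in each table. RNA was measured in 9 libraries of the HEK293T line, which derives from human embryonic kidney (3 WT, 3 HRD1 KO and 3 SEL1L KO), and in 8 libraries of brown adipose tissue (BAT) of 12-week-old C57BL/6J mice. The knockout cells were made with CRISPR/Cas9, the WT cells received plasmid without a guide RNA, and whether a knockout line was 1 clone is not given in the sources used here. The mice were 3 wild type, 2 Hrd1 flox/flox; Ucp1-Cre (Hrd1 KO) and 3 Sel1l flox/flox; Ucp1-Cre (Sel1L KO). The Ucp1 promoter drives Cre in brown adipocytes, so other cells of the tissue keep the gene, and whole tissue was sequenced. In such bulk samples, fewer cells of a type and less RNA per cell cannot be told apart.

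Values are FPKM, that is sequenced fragments divided by transcript length and library size, so levels of different genes can be compared within a table. Their depth in reads is unknown. Relative depth was estimated from the ratios between libraries of low FPKM values near the detection limit. By this estimate the deepest library was 1.88 times as deep as the shallowest in HEK293T and 1.73 times in BAT. The targeted mRNAs check the labels only in part. SEL1L was at 1.82 to 3.36 FPKM in SEL1L KO cells and at 4.39 to 12.9 in WT cells. SYVN1 encodes HRD1. Libraries labelled HRD1 KO held 18.5 to 22.5 FPKM of it, above the 16.7 to 17.0 of WT, and those labelled Hrd1 KO held 13.8 and 14.1 FPKM of Syvn1, above the 5.2 to 5.65 of WT, so these groups are named by their labels. Sel1l was at 25.2, 8.17 and 8.38 FPKM in the libraries labelled Sel1L KO and at 9.10 to 12.9 in WT. A gene-level value also counts exons that a deletion spares. Of 6 HEK293T markers, NEFM was at 0.34 and 0.11 FPKM in SEL1L KO replicates 1 and 2 and at 23.0 to 104 in the other 7 libraries. KRT8 was at 8.57, 11.5 and 8.61 FPKM in replicate 3 of WT, HRD1 KO and SEL1L KO and at 34.6 to 54.7 elsewhere. VIM and KRT18 were also lowest in replicate 3 of each group, and NEFL and PAX2 were not. Of the 8 BAT libraries, 2 stood apart. Sel1L KO replicate 1 held 387 FPKM of Ppargc1a and 118 FPKM of Syvn1, while the other 7 libraries had at most 14.4 and 16.6, and the 6 skeletal muscle markers summed to 308 FPKM in Hrd1 KO replicate 1, to 55.5 in Sel1L KO replicate 1, to 10.8 in Hrd1 KO replicate 2 and to at most 5.35 in the other 5 libraries. Of 7 brown adipocyte markers, Ucp1, Cidea and Cox8b were at 1138 FPKM or more in every BAT library, while Prdm16 was at 2.08 to 8.82 and Dio2, Elovl3 and Ppargc1a had lowest values of 4.69, 2.53 and 4.13. Ucp1 was at 1138 and 1358 FPKM in Hrd1 KO, under the 2041 to 2709 of WT, and at 1266 to 3453 in Sel1L KO. Dio2 was also under WT in Hrd1 KO, at 5.77 and 4.69 FPKM against 33.5 to 41.6. In Sel1L KO it was at 286, 13.2 and 8.37. Cidea, Cox8b, Ppargc1a, Elovl3 and Prdm16 overlapped WT in Hrd1 KO.

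All 10 genes were well expressed in WT cells, in an order that did not follow the complexes. Mean FPKM in WT HEK293T was 269 ± 40.8 (SD, n = 3) for SSR4, 238 ± 18.5 for SEC61B, 227 ± 51.2 for SSR2, 190.4 ± 36.9 for SPCS1 and 181 ± 40.2 for SPCS2. Libraries of each of these genes overlapped those of the next in the order. A lower tier followed without overlap, of SEC61A1 (89.5 ± 12.3), SSR3 (88.7 ± 8.57), SSR1 (75.8 ± 27.9) and SRPRB (60.3 ± 14.7), whose neighbours again overlapped. SPCS3 was lowest at 25.7 ± 2.37, with no library as high as the lowest of SRPRB. In WT BAT, Spcs1 (83.7 ± 5.76, n = 3) and Sec61b (80.4 ± 8.33) led with overlapping libraries, and Srprb (6.02 ± 0.0850) and Spcs3 (5.38 ± 0.546) were lowest, also with overlap. Subunits of the same complex thus had different mRNA levels in both settings: SPCS1 and SPCS3 of the signal peptidase stood at 190.4 and 25.7 in HEK293T, and Spcs1 and Spcs3 at 83.7 and 5.38 in BAT.

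Promoter sequence was looked up because XBP1 and ATF6 act through short elements in the promoters of ER genes. RefSeq (GRCh38.p14) promoters were at hand for 9 of the 10 human genes, 13 promoters in all, and the 250 bases before each start were searched on both strands. SPCS1 had no entry. The ER stress response element (CCAAT and CCACG with 9 bases between them) and its second form (ATTGG and CCACG with 1 base between them) were in 0 of the 13 promoters, and in 0.074% and 0.0513% of 35116 human promoters. At such low shares 0 of 13 says little, and forms of these elements with other letters were not searched. The core ACGTG was in 8 of the 13 promoters, which belong to 5 genes (SPCS2, SRPRB, SSR1, SSR3 and SSR4), and in 18.5% of all promoters. The longer TGACGTG, which contains that core, was in 2 of the 13, of 2 genes (SSR3 and SSR4), and in 1.68% of all. CCAAT was in 8 of the 13, of 7 genes, all but SEC61A1 and SRPRB of those searched, and in 32.0% of all. For each of the 5 genes 1 site is shown, 5′ to 3′ on the strand of the gene, to let the shared letters be compared. It is the longer form where the gene has it and otherwise the match nearest to a start. Capitals mark ACGTG or its reverse complement CACGT, or the longer TGACGTG as its reverse complement CACGTCA. The sites lie at chr3:133805799-133805814 (plus strand) for SRPRB, chr11:74949139-74949163 (plus) for SPCS2, chr6:7313215-7313239 (minus) for SSR1, chr3:156554149-156554175 (minus) for SSR3 and chrX:153794530-153794556 (plus) for SSR4.
SRPRB: agtgcagggcCACGTc
SPCS2: gccccgcggcCACGTcctctgacta
SSR1: cgtgcgcggtACGTGtcccgcccct
SSR3: tgataacagcCACGTCAgcaaggaaac
SSR4: agggaggggcCACGTCAgtgctgccag
The distance from the last base of the match to the start was 2 bases in SRPRB, 113 in SPCS2, 26 in SSR1, 34 in SSR3 and 122 in SSR4. SSR3 has 3 annotated starts and SSR4 has 2, and each site shown belongs to 1 of them. A match of this kind is a string of letters and does not show binding.

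In HEK293T cells labelled HRD1 KO, 9 of the 10 genes had log2 fold changes above 0 against WT cells, from 0.14 for SSR1 to 0.83 for SSR3, as had 40.6% of all genes tested. The log2 fold change of SPCS1 was -0.29. Of the 10 genes, 0 passed the threshold of 0.05 on the adjusted p (limma, adjusted over 15796 genes), which 0.057% of all tested genes passed. With the replicate number as a block, 0 of 10 and 0.158% of all genes passed. The median log2 fold change of the 10 was 0.50 against -0.05 for all genes tested. With an unadjusted p under 0.05 there were 5 genes higher and 0 lower, against 0.943% and 1.06% of all genes, and with the block 8 higher against 2.56% of all genes. Every HRD1 KO library lay above every WT library for 5 genes (SEC61A1, SEC61B, SSR2, SSR3 and SSR4) where 1.96% of all genes did so, and below every WT library for SPCS1, as 3.04% of all genes did. After the libraries were scaled by median ratios, 4 of the 10 genes lay above, all but SSR2 of these 5, against 2.38% of all genes. On that scale SPCS1 overlapped WT. Replicate numbers were taken to pair the HEK293T libraries because of correlations in these same data, as the labels state no pairing. In the libraries with the same number 8 of 10 genes were higher in HRD1 KO in all 3 pairs, which held for 9.7% of all genes.

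**Figure D1:**
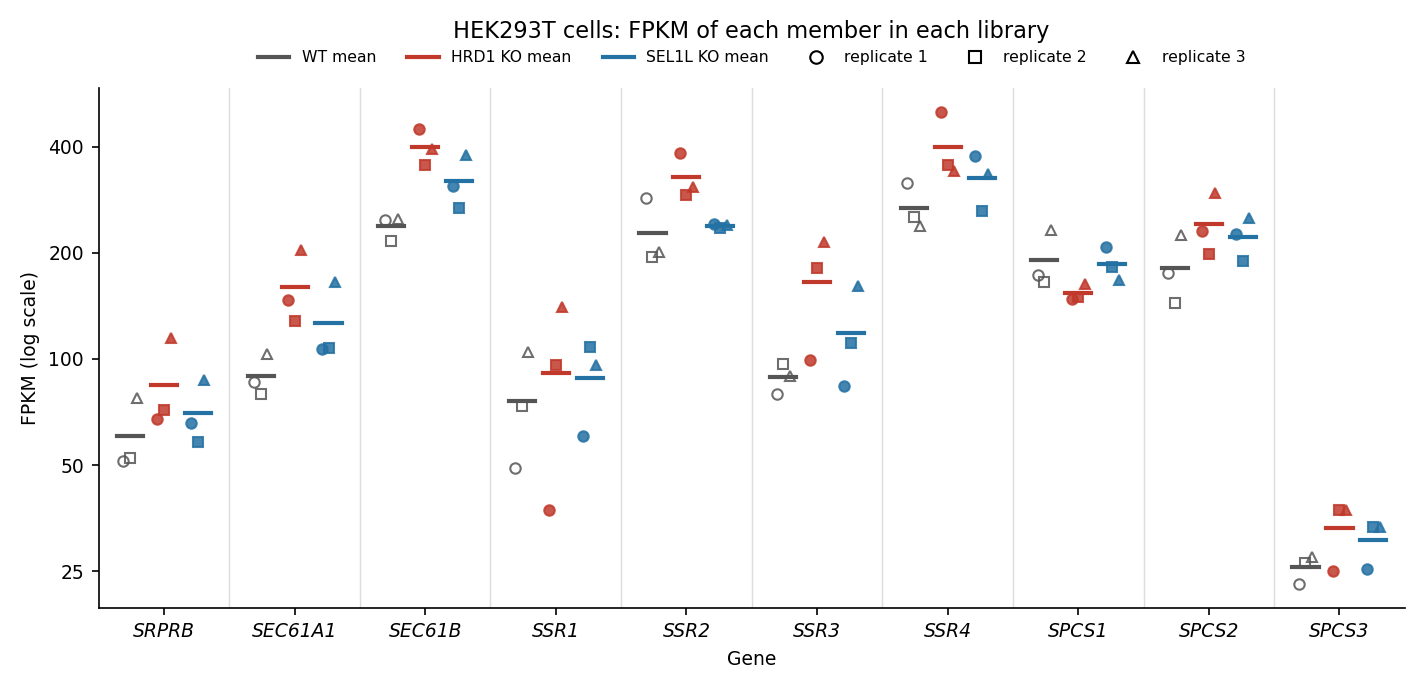
FPKM of the 10 genes (x axis) on a log scale (y axis) in the 9 HEK293T libraries, with 1 point per library, its shape giving the replicate number, and a bar for the mean of each group. For SEC61A1 and SEC61B all HRD1 KO and SEL1L KO libraries lie above the WT libraries, and for SPCS1 all HRD1 KO libraries lie below them.

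SRPRB encodes the membrane-anchored β subunit of the SRP receptor (ENSG00000144867, chromosome 3, 133784023 to 133825772, plus strand, GRCh38). Its FPKM was 51.5, 52.3 and 77.3 in WT, 67.6, 71.6 and 114 in HRD1 KO, and 65.9, 58.0 and 87.0 in SEL1L KO, each in the order of replicates 1 to 3. The third library was the highest of each group, so that the groups overlapped although the HRD1 KO library exceeded the WT library of the same number each time. The log2 fold change was 0.47 (SE 0.26) in HRD1 KO and 0.23 (SE 0.26) in SEL1L KO, and the differences within the 3 pairs were 0.39, 0.45 and 0.57 in HRD1 KO.

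SEC61A1 (ENSG00000058262, chromosome 3, 128051641 to 128071705, plus strand) encodes the pore-forming α subunit of the channel. Its FPKM was 86.0, 79.4 and 103 in WT, 147, 128 and 203 in HRD1 KO and 107, 108 and 165 in SEL1L KO. All knockout libraries lay above all WT libraries. The log2 fold change was 0.82 (SE 0.24) in HRD1 KO and 0.48 (SE 0.24) in SEL1L KO. The limma adjusted p in HRD1 KO was 1, and 0.052 with the replicate number as a block.

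SEC61B (ENSG00000106803, chromosome 9, 99222064 to 99230615, plus strand) encodes the tail-anchored β subunit. Its FPKM was 247, 217 and 249.7 in WT, 449, 354 and 393 in HRD1 KO and 309.6, 268 and 379.7 in SEL1L KO, again with no overlap between WT and either knockout. The log2 fold change was 0.74 (SE 0.18) in HRD1 KO, with differences of 0.86, 0.71 and 0.65 within the 3 pairs, and 0.41 (SE 0.18) in SEL1L KO. In HRD1 KO its limma adjusted p was 0.869, the lowest of the 10 without the block, and 0.086 with the block, where SEC61A1 was lower.

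The TRAP subunits behaved unevenly. SSR2 encodes the β subunit (ENSG00000163479, chromosome 1, 156009048 to 156020951, minus strand), and SSR4 the δ subunit (ENSG00000180879, chromosome X, 153793516 to 153798499, plus strand). SSR2 was at 286, 195 and 201 FPKM in WT, 383, 291 and 308 in HRD1 KO and 241, 235 and 239 in SEL1L KO. SSR4 was at 315, 252 and 239 in WT, 502, 354 and 341 in HRD1 KO and 377, 263 and 334 in SEL1L KO. Both were clear of WT in HRD1 KO, with log2 fold changes of 0.54 (SE 0.19) and 0.56 (SE 0.21), and both overlapped WT in SEL1L KO, with 0.09 and 0.27. The gap of SSR2 was narrow, with 291 FPKM in the lowest HRD1 KO library and 286 in the highest WT library. After scaling SSR2 overlapped WT (273 against 285), while SSR4 stayed clear of it (332 against 314).

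SSR3, the γ subunit (ENSG00000114850, chromosome 3, 156539553 to 156555149, minus strand), had the largest log2 fold change of the 10 in HRD1 KO, 0.83 (SE 0.31). Its FPKM was 79.6, 96.7 and 89.7 in WT, 99.2, 181 and 215 in HRD1 KO and 83.9, 111 and 161 in SEL1L KO. The knockout libraries of replicate 1 were near WT and those of replicate 3 far above it, so that the differences within pairs ran from 0.32 to 1.26 in HRD1 KO and from 0.08 to 0.84 in SEL1L KO. SSR1, the α subunit (ENSG00000124783, chromosome 6, 7268306 to 7347446, minus strand), varied most of all. Its FPKM was 49.1, 73.4 and 105 in WT, 37.2, 96.0 and 141 in HRD1 KO and 60.4, 108 and 96.4 in SEL1L KO, with the library of replicate 1 lowest in every group. SSR1 had a log2 fold change of 0.14 with an SE of 0.46 in HRD1 KO, and the 95% confidence interval of -0.90 to 1.17 shows how little these libraries say on SSR1.

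The signal peptidase subunits differed from each other in HRD1 KO. SPCS2 (ENSG00000118363, chromosome 11, 74949261 to 74979033, plus strand) encodes a subunit that supports the catalytic SEC11 subunits, and it was at 175, 144 and 224 FPKM in WT, 231, 199 and 295 in HRD1 KO and 226, 189 and 251 in SEL1L KO. Its log2 fold changes were 0.42 and 0.31 (SE 0.22), with differences of 0.40, 0.46 and 0.40 within the 3 pairs in HRD1 KO. SPCS3 (ENSG00000129128, chromosome 4, 176319966 to 176332245, plus strand), which is required for the peptidase to work, was at 23.0, 26.4 and 27.5 in WT, 25.1, 37.4 and 37.3 in HRD1 KO and 25.4, 33.4 and 33.3 in SEL1L KO. The knockout library of replicate 1 was again near WT, and the log2 fold changes were 0.35 and 0.25 (SE 0.22).

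SPCS1 (ENSG00000114902, chromosome 3, 52704955 to 52711148, plus strand), a small subunit that binds near the active centre and influences which substrates are cut, was at 173, 165 and 233 FPKM in WT, 148, 149.6 and 164 in HRD1 KO and 208, 183 and 167 in SEL1L KO. The HRD1 KO libraries were the lowest of the table, with the highest of them just under the lowest WT library. After scaling, HRD1 KO replicate 3 (168) lay above WT replicate 2 (157). SPCS1 had a log2 fold change of -0.29 (SE 0.18, 95% confidence interval -0.69 to 0.10) in HRD1 KO and -0.02 (SE 0.18) in SEL1L KO. Of the exonic bases of SPCS1, 56.6% are also exons of GLT8D1 or NEK4 on the other strand, and since the strandedness of the libraries is not given in the sources used here, reads of these genes may be shared. GLT8D1 was at 39.7 to 53.5 FPKM in HRD1 KO and 52.9 to 64.2 in WT, and NEK4 at 8.93 to 18.1 and 12.0 to 31.6, and their part in the SPCS1 value was not tested. For the other 9 human genes the overlap with exons on the other strand was at most 20.8% (SSR3). Processed copies of the genes were low, the highest being SPCS2P4 at 3.08 to 8.32 FPKM.

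In SEL1L KO cells the estimates were closer to 0 than in HRD1 KO cells for 9 of the 10 genes, all but SSR1. Of the 10 genes 0 passed the adjusted threshold, which 0.0317% of all genes passed, and with the replicate block 0 of 10 and 0.076% of all genes. The median log2 fold change of the 10 was 0.26 against -0.06 for all genes, and it was 0.17 without SEL1L KO replicate 3 and 0.40 without WT replicate 3. SEC61A1 and SEC61B were the 2 genes with every SEL1L KO library above every WT library, which held for 2.41% of all genes, and 7 of 10 were higher in all 3 pairs, as were 10.4% of all genes. With an unadjusted p under 0.05, 1 gene (SEC61B) was higher and 0 lower, against 0.715% and 0.779% of all genes, and with the block 3 were higher (SEC61A1, SEC61B and SPCS2) against 2.01% of all genes. The 2 knockouts share their WT libraries, so their differences from WT are not independent.

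The direct comparison of HRD1 KO with SEL1L KO cells called 0 of 10 genes, as it called 0% of all genes. With the replicate block 2 of all genes (0.0127%) and 0 of the 10 passed. The median log2 difference of the 10 was 0.27, or 0.081 without HRD1 KO replicate 3. SSR2 was above SEL1L KO in every HRD1 KO library (2.67% of all genes), with a log2 difference of 0.45 (SE 0.19, 95% confidence interval 0.02 to 0.87). SPCS1 was below it in every library (2.51% of all genes), with a difference of -0.27 (SE 0.18, interval -0.67 to 0.12). After scaling, HRD1 KO replicate 3 (168.1) lay above SEL1L KO replicate 3 (167.2) for SPCS1. Without the block the intervals of the other 8 genes include 0 and have upper ends of 0.59 or more. An unadjusted p under 0.05 in the direction of HRD1 KO was reached by 1 gene without the block (SSR2, 1.18% of all genes) and by 5 with it (SEC61A1, SEC61B, SSR2, SSR3 and SSR4, 3.97% of all genes), each of which was higher in all 3 pairs.

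Libraries with the same replicate number also resembled each other in these genes. The mean of the 10 genes, each centred on its mean over the 9 libraries on the log2 scale, was -0.30, -0.34 and -0.07 in WT replicates 1 to 3, 0.03, 0.16 and 0.46 in HRD1 KO and -0.09, -0.06 and 0.21 in SEL1L KO. The third library was highest in each group, and all 3 HRD1 KO libraries lay above all 3 WT libraries.

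In BAT labelled Hrd1 KO, Srprb was the 1 gene of the 10 that rose past the threshold of 0.01 on the adjusted p, which 0.369% of the 12473 tested genes passed and 0.289% passed upwards. Srprb was 3.96-fold higher than in WT, and Sec61a1 3.37-fold and Spcs2 2.42-fold higher without passing. All 10 genes lay above WT in both Hrd1 KO libraries, but so did 51.1% of all genes, since the median gene of this comparison was shifted by 0.42 on the log2 scale. The median log2 fold change of the 10 was 0.90, and 8 of 10 had an unadjusted p under 0.05 in the upward direction, against 25.4% of all genes. Scaling the libraries by median ratios, which brings the median gene to 0.01, left 9 of 10 above 0 (50.6% of all genes) with a median of 0.48, and 7 of 10 clear of WT against 22.8% of all genes. On that scale 0 of 10 passed (0.0401% of all genes). The most abundant gene, mt-Atp8, took 17.7% to 18.7% of summed FPKM in WT and 11.9% to 16.1% in Hrd1 KO, and its part in the shift was not tested.

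**Figure D2:**
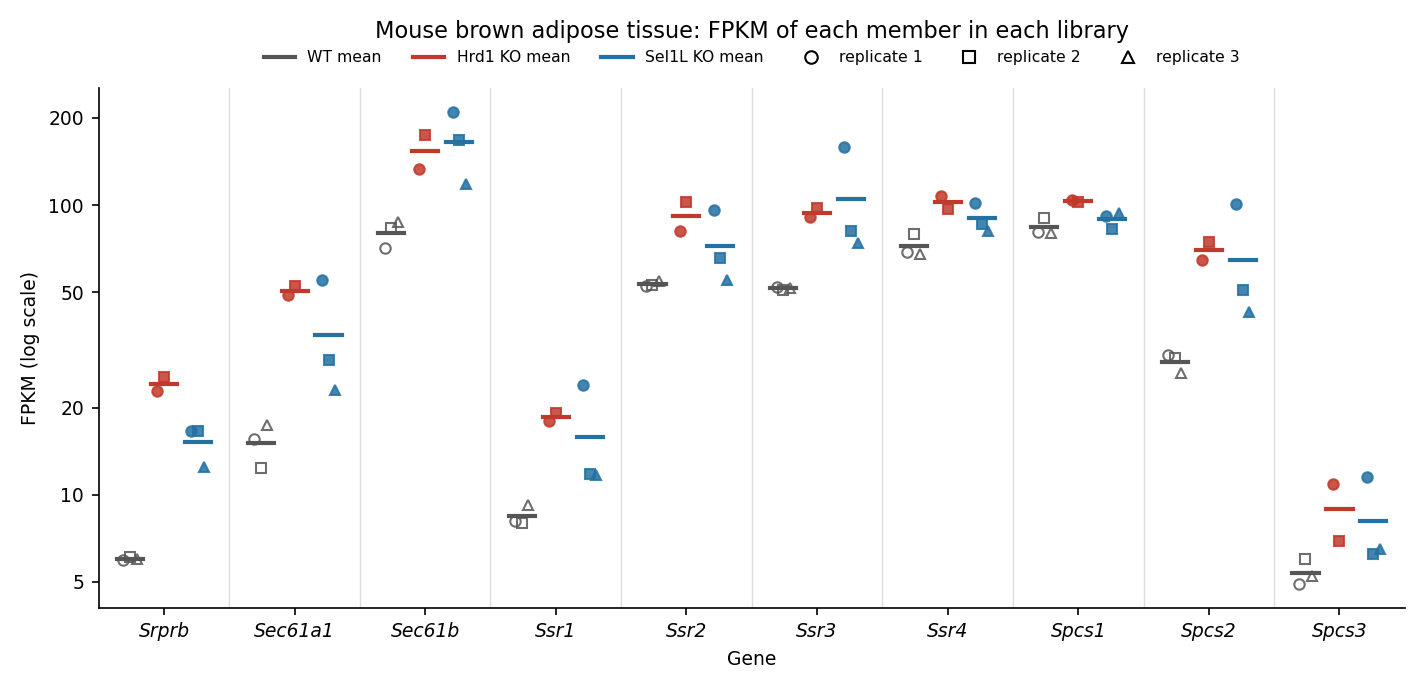
FPKM of the 10 mouse genes (x axis) on a log scale (y axis) in the 8 BAT libraries, with 1 point per library, its shape giving the replicate number, and a bar for the mean of each group. Srprb lies at 5.93 to 6.10 in WT and at 12.5 to 25.5 in the knockouts, and Sel1L KO replicate 1 is the highest Sel1L KO library for 8 of the 10 genes.

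Srprb (ENSMUSG00000032553, chromosome 9, 103188032 to 103202137, minus strand, GRCm38) was at 5.93, 6.10 and 6.02 FPKM in WT, 22.8 and 25.5 in Hrd1 KO and 16.55, 16.65 and 12.5 in Sel1L KO. WT libraries hardly differed, both knockouts were clear of WT, and Hrd1 KO was clear of Sel1L KO. The log2 fold change was 1.99 (SE 0.19, limma adjusted p = 0.0046) in Hrd1 KO and 1.31 (SE 0.17, adjusted p = 0.0206) in Sel1L KO. Relative to the median gene, after scaling, the changes were 1.57 (adjusted p = 0.0282) and 1.23 (adjusted p = 0.0454). Leaving out any WT library, either Hrd1 KO library or Sel1L KO replicate 2 gave a log2 fold change of 1.91 to 2.07 in Hrd1 KO and an adjusted p of 0.0126 to 0.0533, so the call at 0.01 rests on these 6 libraries. The predicted gene Gm20425 shares 20.7% of the exonic bases of Srprb on the same strand, and the table has no row of that name.

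The receptor's α subunit, which is not among the 10, rose as well in Hrd1 KO. Srpr (SRPRA in human) was at 33.3, 27.6 and 30.9 FPKM in WT, 128 and 136 in Hrd1 KO and 103, 69.1 and 61.6 in Sel1L KO. Both knockouts were clear of WT, and in Hrd1 KO the rise was 2.11 on the log2 scale (SE 0.22, limma adjusted p = 0.0068, and 1.69 with 0.0396 after scaling). In Sel1L KO the value was 1.31 (SE 0.20, adjusted p = 0.033). In HEK293T, SRPRA was at 43.3, 42.9 and 40.7 FPKM in WT, 49.7, 80.6 and 75.8 in HRD1 KO and 45.9, 62.8 and 62.3 in SEL1L KO, with log2 fold changes of 0.67 (SE 0.22) and 0.41 (SE 0.22) that did not pass.

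Sec61a1 (ENSMUSG00000030082, chromosome 6, 88503579 to 88518905, minus strand) was at 15.5, 12.4 and 17.4 FPKM in WT, 48.8 and 52.5 in Hrd1 KO and 55.0, 29.2 and 23.1 in Sel1L KO. Both knockouts were clear of WT, with Sel1L KO spread over a wide range. The log2 fold changes were 1.75 (SE 0.34, limma adjusted p = 0.0332) and 1.15 (SE 0.30, adjusted p = 0.115), or 1.33 and 1.06 after scaling. Sec61b (ENSMUSG00000053317, chromosome 4, 47474658 to 47483242, plus strand) was at 71.1, 83.1 and 87.1 in WT, 133 and 175 in Hrd1 KO and 209.9, 168 and 118 in Sel1L KO. Its log2 fold changes were 0.93 (SE 0.25) and 1.00 (SE 0.22), and after scaling 0.51 and 0.91.

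Among the TRAP subunits, Ssr1 (ENSMUSG00000021427, chromosome 13, 37966605 to 37994217, minus strand) was at 8.11, 8.0 and 9.2 FPKM in WT, 18.0 and 19.2 in Hrd1 KO and 23.9, 11.8 and 11.7 in Sel1L KO. Ssr3 (ENSMUSG00000027828, chromosome 3, 65379655 to 65392623, minus strand) was at 52.4, 51.1 and 51.8 in WT, 90.7 and 97.6 in Hrd1 KO and 158, 81.5 and 74.1 in Sel1L KO. For both, replicate 1 of Sel1L KO was far above the other 2 and all knockout libraries were above WT. Their log2 fold changes were 1.13 (SE 0.31) and 0.86 (SE 0.30) in Hrd1 KO and 0.82 (SE 0.28) and 0.93 (SE 0.26) in Sel1L KO. Ssr2 (ENSMUSG00000041355, chromosome 3, 88575876 to 88588419, plus strand) was at 52.6, 53.1 and 54.9 in WT, 81.4 and 102 in Hrd1 KO and 96.2, 65.6 and 55.0 in Sel1L KO. Ssr4 (ENSMUSG00000002014, chromosome X, 73787028 to 73790830, plus strand) was at 68.7, 79.7 and 67.8 in WT, 107 and 97.0 in Hrd1 KO and 102, 86.3 and 81.5 in Sel1L KO. The lowest Sel1L KO library of each was hardly above the highest WT library. Their log2 fold changes were 0.77 (SE 0.23) and 0.50 (SE 0.16) in Hrd1 KO and 0.39 (SE 0.21) and 0.32 (SE 0.14) in Sel1L KO, and in Hrd1 KO after scaling 0.35 and 0.08.

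Of the signal peptidase subunits, Spcs2 (ENSMUSG00000035227, chromosome 7, 99837569 to 99863462, minus strand) was at 30.5, 29.6 and 26.3 FPKM in WT, 64.8 and 74.8 in Hrd1 KO and 101, 50.8 and 42.7 in Sel1L KO. Its log2 fold changes were 1.27 (SE 0.33) and 1.06 (SE 0.29), the largest of the complex in both knockouts. Spcs3 (ENSMUSG00000054408, chromosome 8, 54520433 to 54529998, minus strand) was at 4.91, 5.98 and 5.26 in WT, 10.9 and 6.90 in Hrd1 KO and 11.6, 6.22 and 6.52 in Sel1L KO. The first library of each knockout was near 11 and the others were just above WT, with log2 fold changes of 0.68 (SE 0.32) and 0.53 (SE 0.29). Spcs1 (ENSMUSG00000021917, chromosome 14, 30999826 to 31001672, minus strand) was at 80.7, 90.4 and 80.2 in WT, 104 and 102 in Hrd1 KO and 91.8, 82.7 and 94.2 in Sel1L KO. It was the lowest of the 10 by log2 fold change in both knockouts, at 0.30 (SE 0.14) and 0.10 (SE 0.12). After scaling, which turns the sign in Hrd1 KO, it was at -0.12 and 0.01. Exons of Glt8d1 on the other strand cover 16.3% of its exonic bases, and Glt8d1 was at 4.52 to 10.2 FPKM.

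In Sel1L KO BAT, 0 of 10 genes passed the threshold, as did 0.104% of all genes, and 9 of 10 (all but Spcs1) were clear of WT against 17.7% of all genes. The median log2 fold change was 0.87 against 0.09 for all genes, and 0.53 without Sel1L KO replicate 1. After scaling, 6 of 10 were clear of WT against 13.2% of all genes. An unadjusted p under 0.05 was reached upwards by 6 genes and downwards by 0, against 12.7% and 5.08% of all genes. Sel1L KO replicate 1 weighed on the Hrd1 KO comparison as well, through the shared estimate of the spread. Without it, 6 of 10 genes passed in Hrd1 KO (Srprb, Sec61a1, Ssr1, Ssr2, Ssr3 and Spcs2), as did 6.09% of all genes, and 0 of 10 in Sel1L KO (0.489%). In Sel1L KO that left Srprb at a log2 fold change of 1.25, Sec61b at 0.81, Sec61a1 at 0.79, Spcs2 at 0.69, Ssr3 at 0.59, Ssr1 at 0.48 and the other 4 genes at 0.078 to 0.24. Without Hrd1 KO replicate 1, the library with the highest sum of muscle markers, Srprb was at 2.07 in Hrd1 KO, Sec61a1 at 1.80 and Spcs2 at 1.38, while Spcs3 went from 0.68 to 0.36.

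**Figure D3:**
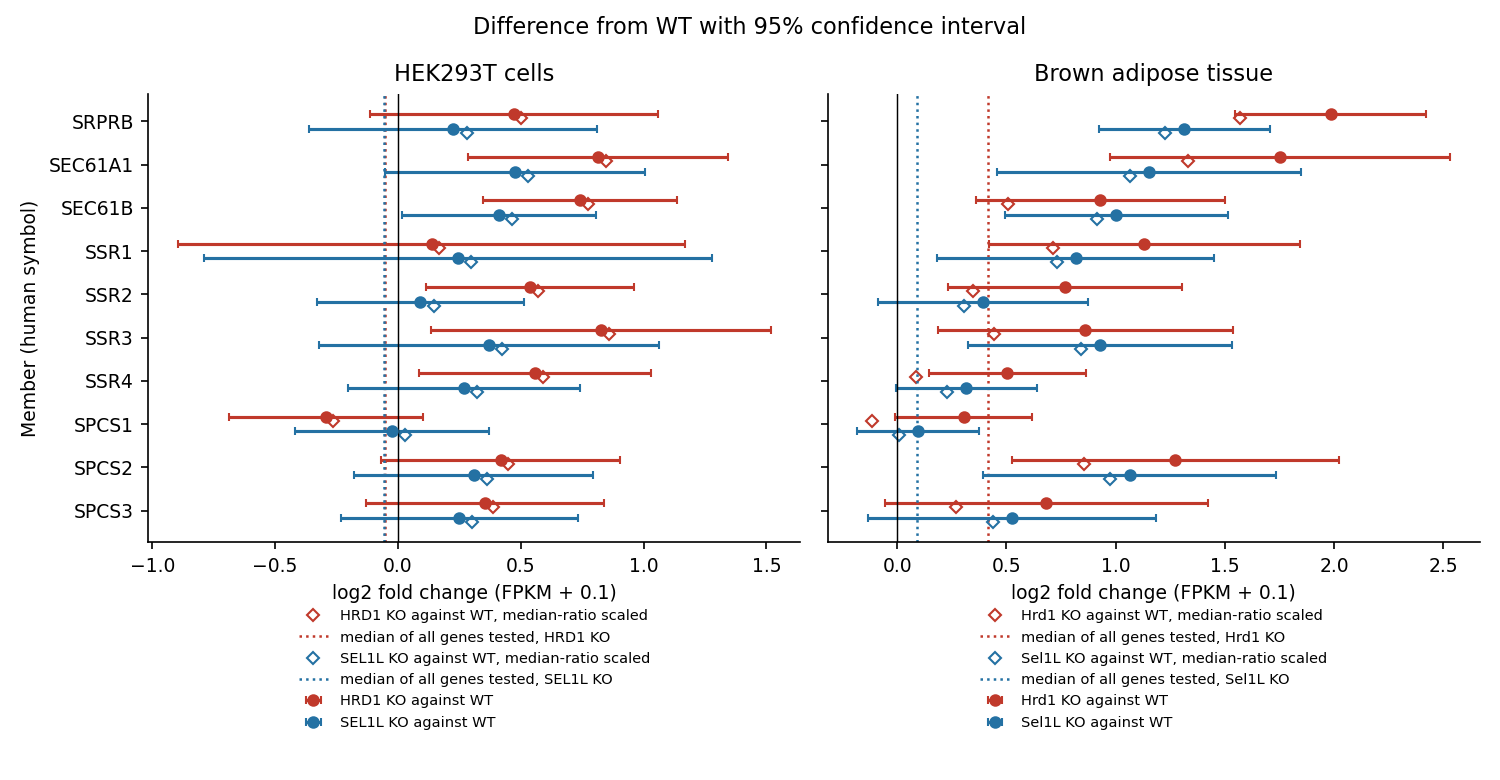
Log2 fold change against WT (x axis) of the 10 genes (y axis, human symbols) in HEK293T (left) and BAT (right). Filled points with bars give limma estimates with 95% confidence intervals, open diamonds the estimates after median-ratio scaling, and dotted lines the median of all genes tested. SPCS1 has the lowest estimate in all 4 comparisons, and scaling shifts the Hrd1 KO estimates in BAT to the left by about 0.42.

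Between the BAT knockouts, 0 of 10 genes were called (0.0401% of all genes). Srprb and Spcs1 were higher in both Hrd1 KO libraries than in all Sel1L KO libraries, which held for 32.5% of all genes, and 0 of 10 were after scaling (13.5% of all genes). The median log2 difference of the 10 was 0.21 against 0.30 for all genes, and 0.51 without Sel1L KO replicate 1. Srprb differed by 0.67 (SE 0.19, limma adjusted p = 0.196, 95% confidence interval 0.23 to 1.11) and by 0.34 after scaling (interval -0.14 to 0.82). Spcs2 differed by 0.21 with an interval of -0.54 to 0.96, which includes sizeable differences of either sign.

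Some marker sums of other cell types were also above WT without overlap in a BAT knockout, which was not tested. The sums are of unscaled FPKM. Of all single genes, 51.1% lay above WT without overlap in Hrd1 KO and 17.7% in Sel1L KO. Below WT without overlap were 5.79% and 8.43%. The 6 macrophage markers summed to 52.5 to 61.1 FPKM in WT libraries, while the sums lay between 120.03 and 135 in Hrd1 KO and between 122 and 202 in Sel1L KO. For the 5 fibroblast markers the sums were 69.7 to 96.7 FPKM (WT), 146 and 181 (Hrd1 KO) and 150.1 to 157 (Sel1L KO). The 4 endothelial markers summed to 66.3 to 90.0 FPKM (WT), 109 and 141 (Hrd1 KO) and 69.3 to 121 (Sel1L KO, overlapping WT). The 4 T cell markers summed to at most 4.75 in any library. The sum of the 4 general adipocyte markers was lower in both knockouts without overlap, at 18302 to 20353 FPKM (WT), 14075 and 17517 (Hrd1 KO) and 14110 to 17419 (Sel1L KO). Fabp4, at 11646 to 17463 FPKM, made up most of this sum and was itself lower in both knockouts. Plin1 was higher in Hrd1 KO (810 and 824 FPKM) than in WT (480 to 575) and overlapped WT in Sel1L KO. Adipoq overlapped WT in both knockouts, and Lpl was lower in Hrd1 KO and overlapped WT in Sel1L KO. For the 7 brown adipocyte markers the sums were 8408 to 11256 FPKM (WT), 5927 and 8321 (Hrd1 KO) and 7365 to 9172 (Sel1L KO). The part of these cell types in the values of the 10 genes was not tested.

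Ratios within a library do not depend on its scaling, and SPCS1, which had the lowest log2 fold change of the 10 in each comparison with WT, was chosen after its values were seen as the gene to divide by. In HRD1 KO cells the ratio of SEC61A1 to SPCS1 was 0.857 to 1.24 and in WT 0.443 to 0.497. The ratio of SPCS2 to SPCS1, both subunits of the signal peptidase, was 1.33 to 1.80 in HRD1 KO, 1.03 to 1.5 in SEL1L KO and 0.873 to 1.01 in WT. In BAT the ratio of Spcs2 to Spcs1 was 0.622 and 0.732 in Hrd1 KO, 0.454 to 1.1 in Sel1L KO and 0.328 to 0.378 in WT. Ratios to SPCS1 were clear above WT for 8 of the 9 other genes in HRD1 KO cells, 3 of 9 in SEL1L KO cells, 9 of 9 in Hrd1 KO BAT and 7 of 9 in Sel1L KO BAT. As the divisor was chosen for its low change, these counts describe the unequal change within the complexes and carry no test. The share of all genes with such ratios clear of WT was not computed. Before division, 1.96%, 2.41%, 51.1% and 17.7% of all genes were clear above WT in these groups, in the same order.

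**Figure D4:**
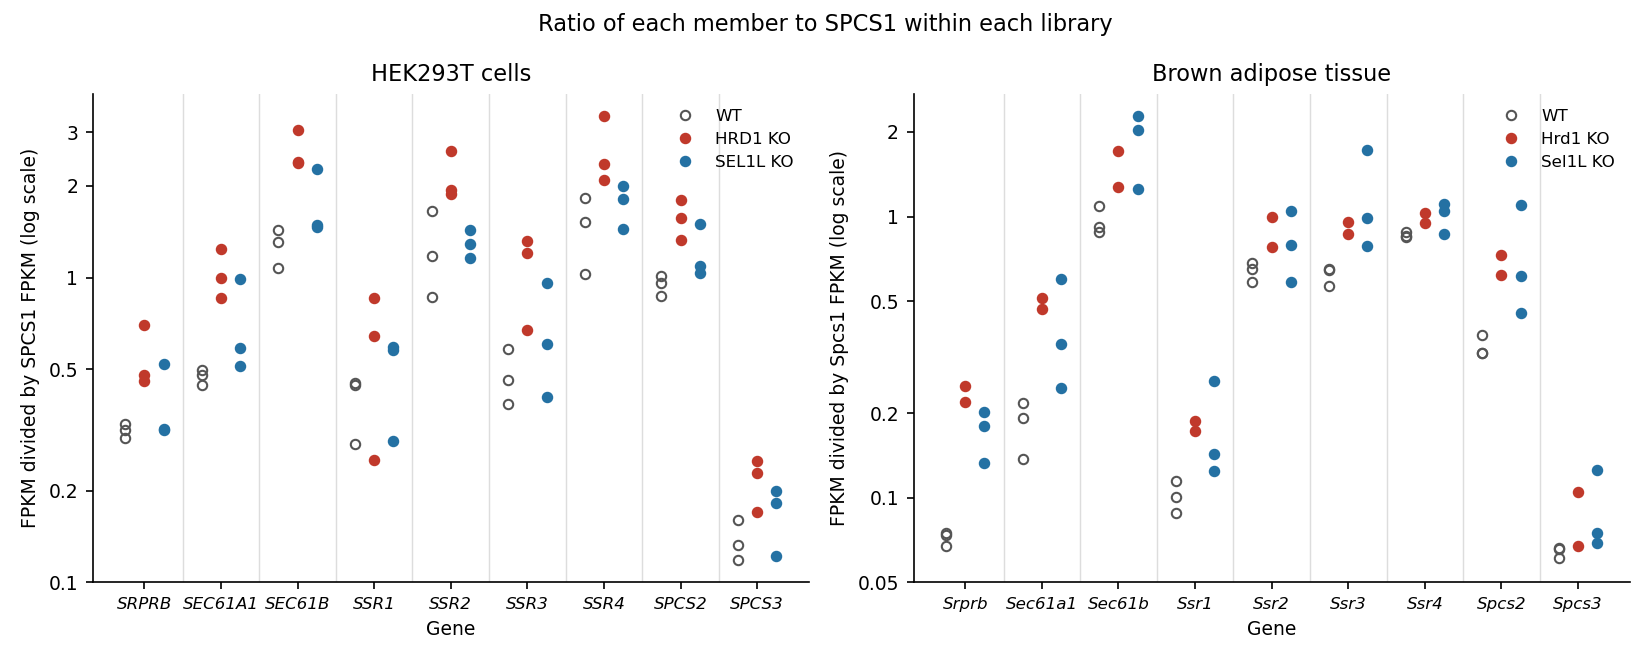
FPKM of each of 9 genes divided by that of SPCS1 in the same library (y axis, log scale) in HEK293T (left) and BAT (right), with 1 point per library, open for WT. In Hrd1 KO BAT all 9 ratios lie above the WT ratios, and in HRD1 KO cells all but that of SSR1. SPCS1 was chosen as divisor for its low change, and the share of all genes with such ratios was not computed.

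To set the 10 genes beside related machinery, 2 further lists were used, which were chosen with earlier results of these data known. They hold 15 other genes of targeting and translocation (SRP proteins, SRPRA, further SEC61 and SEC62/SEC63 subunits, the catalytic SEC11 subunits and TRAM proteins) and 23 genes that insert membrane proteins by other routes (the EMC, GET/BAG6 and multipass translocon groups and TMEM208). In HRD1 KO cells 0 of 15 and 0 of 23 passed (0.057% of all genes), with medians of 0.21 and -0.01 on the log2 scale. SEC61G, the γ subunit of the channel, had the largest value of the first list: 481, 459 and 434 FPKM in WT, 809, 787 and 694 in HRD1 KO and 651, 518 and 552 in SEL1L KO. All knockout libraries were above WT, and the log2 fold change of 0.73 (SE 0.15) in HRD1 KO had a limma adjusted p of 0.537, and of 0.0427 with the replicate block, which passes. With the block 0.158% of all genes passed. The smallest was SEC63 (-0.02), and the second list ran from MMGT1 (-0.19) to TMEM208 (0.33). In SEL1L KO cells 0 of 15 and 0 of 23 passed (0.0317% of all genes), with medians of 0.11 and -0.07. The lists ran from SRP9 (-0.14) to SEC11C (0.44) and from MMGT1 (-0.41) to EMC9 (0.11).

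In Hrd1 KO BAT, Srpr was the 1 gene called of 14 tested of the first list (Tram2 was too low to be tested), and 0 of 23 were called in the second. Of all genes 0.369% were called. After scaling Srpr did not pass, and 0.0401% of all genes did. The list medians were 0.78 and 0.12, where all genes had 0.42. The first list ran from Sec62 (-0.09) to Srpr (2.11) and the second from Emc2 (-0.32) to Get1 (1.52). An unadjusted p under 0.05 was reached upwards by 11 of 14 and 7 of 23 genes, against 25.4% of all genes. In Sel1L KO BAT 0 of 14 and 0 of 23 were called (0.104% of all genes), and the medians were 0.56 and -0.08 where all genes had 0.09. There an unadjusted p under 0.05 was reached upwards by 10 of 14 and 0 of 23 genes, against 12.7% of all genes. The first list ran from Sec62 (0.16) to Sec61g (1.33) and the second from Emc1 (-0.57) to Caml (0.46). Sec61g was at 22.1, 33.1 and 25.9 FPKM in WT, 68.0 and 59.2 in Hrd1 KO and 99.8, 55.4 and 55.2 in Sel1L KO, clear of WT in both.

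**Figure D5:**
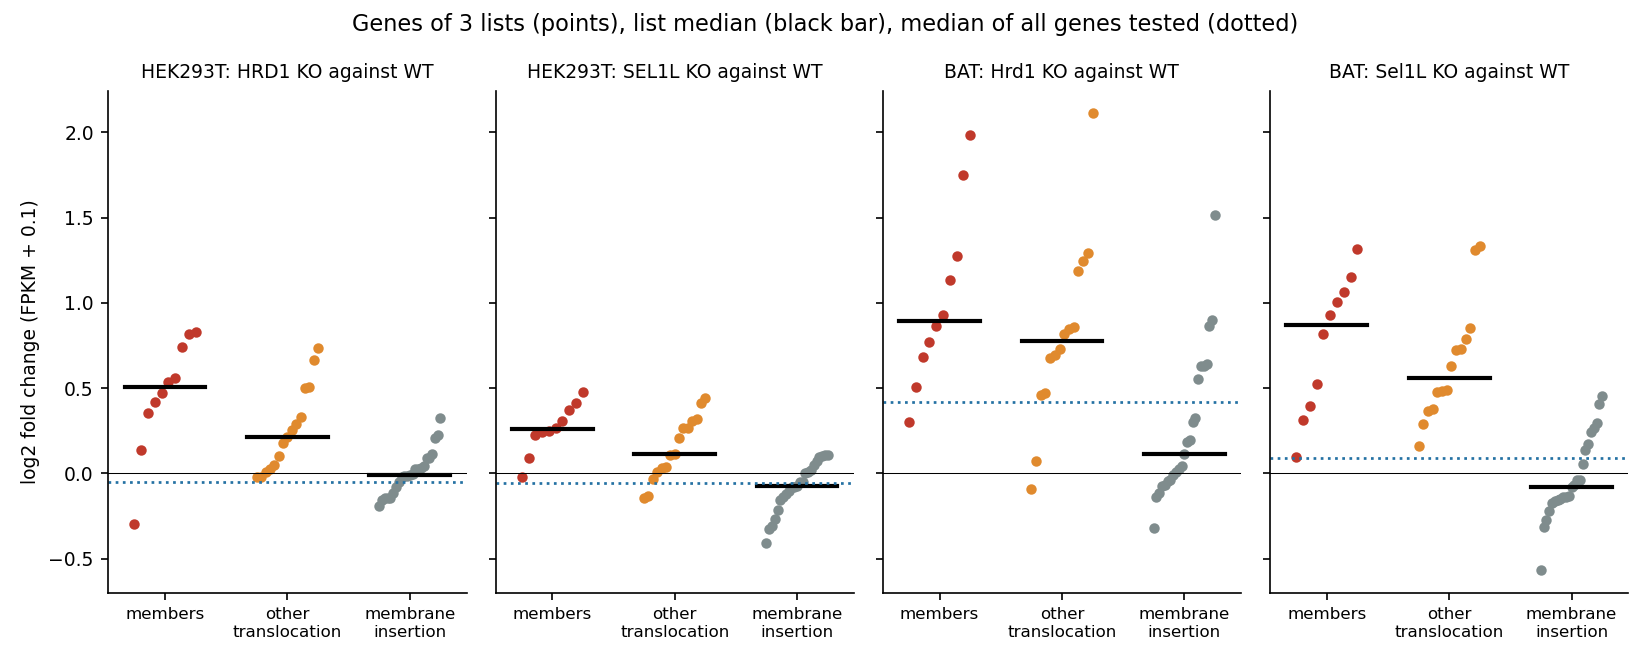
Log2 fold change against WT (y axis) of the 10 genes, of 15 other translocation genes (14 in BAT) and of 23 membrane insertion genes in 4 comparisons, with 1 point per gene, black bars for list medians and dotted lines for the median of all genes tested. In each panel the median of the 10 genes is the highest and that of the membrane insertion genes the lowest of the 3 lists. The lists were chosen with earlier results of these data known, so this order is not a test.

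The genes most like the 10 across libraries were found by the root mean square difference between a gene's centred log2 values and the mean of the 10, among all tested genes outside the lists. Over the 9 HEK293T libraries the nearest were UAP1, FTSJ1, ARCN1, PREB and TGDS, with differences of 0.124 to 0.135 where the median gene had 0.446. These genes had log2 fold changes between 0.32 and 0.40 in HRD1 KO and between 0.083 and 0.28 in SEL1L KO. Of the 10 genes themselves SPCS2 was nearest to their mean (0.143) and SSR1 farthest (0.494). Over the 8 BAT libraries the nearest were Mgat2, Mydgf, Osbp, Alyref and Slc39a7, at 0.0823 to 0.101 where the median gene had 0.558, and of the 10 genes Ssr1 was nearest (0.123) and Srprb farthest (0.413), followed by Spcs1 (0.392). In WT the mean of the 10 centred BAT profiles was -0.58 to -0.52, in Hrd1 KO 0.45 and 0.51, and in Sel1L KO 0.68, 0.08 and -0.10 for replicates 1 to 3, so that the spread among Sel1L KO libraries exceeded the distance between the group means of Hrd1 KO and Sel1L KO.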

How the data were processed

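RNA with polyA tails from 9 HEK293T and 8 BAT samples was sequenced from both ends on 1 flow cell. The authors mapped reads with STAR 2.7.8a to GRCh38 or GRCm38 (ENSEMBL models) and estimated abundance with RSEM 1.3.3. They deposited FPKM per gene and library, to 2 decimals, and FPKM do not allow a count test. RSEM apportions ambiguous reads by estimate, so copies and overlapping genes are uncertain.

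Groups came from the sample labels. limma 3.58.1 (R 4.3.3) was fitted to log2(FPKM + 0.1) with a variance trend, with all 3 groups of HEK293T, or of BAT, in the same model. A gene was tested if 3 HEK293T (or 2 BAT) libraries reached an FPKM of 1, which left 15796 and 12473 genes, with Benjamini-Hochberg adjustment over them. All 10 members passed this filter in both tables. Adjusted p had to be under 0.05 in HEK293T, a choice made here, or under 0.01 in BAT, as in the study. The fit was tested on simulated data with independent noise and planted changes larger than those of the members. Such a test does not show whether changes of the members' size would be found. Fold changes are on this log2 scale, which understates those of low genes. The labels do not say whether the HEK293T samples of a group were separate cultures, and p-values then measure only the spread between these samples.

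Deviations from the group means, compared between HEK293T libraries of different groups, had correlations of 0.216 to 0.485 where the replicate number in the titles was shared (9 pairs) and of -0.40 to 0.027 elsewhere (18 pairs). The numbers were therefore taken to pair these libraries, and the blocked value is given where it changes a call or a count of calls. Alternatives were a pseudocount of 1, no filter, median-ratio scaling, a replicate block, only the 2 groups compared, no variance trend, another threshold, and leaving out each library.

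The genes named are the 10 members, the called, largest and smallest of 2 related lists, the 5 nearest genes in each organism, and the targeted genes. SRPRA in HEK293T and Sec61g in Hrd1 KO were added after their values were seen, as were genes that overlap SPCS1. The members and lists were chosen with earlier results of these data known. Positions are from GENCODE, and promoters from RefSeq (GRCh38.p14). Python 3.11.15, pandas 2.3.3 and matplotlib 3.10.9 were used for sequences and plots. Results of 1 further marker list are not reported here.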

Additional observations from a re-analysis of the deposited data

How the results depend on the processing

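At an unadjusted p under 0.05, 5 members were higher in HRD1 KO cells (0.943% of all genes) and 1 in SEL1L KO cells (0.715%). Between these knockouts 1 was higher in HRD1 KO (1.18%), and 0 passed the adjusted threshold in any of the 3 comparisons. With the block 8, 3 and 5 were higher at that unadjusted p (2.56%, 2.01% and 3.97% of all genes). In Hrd1 KO BAT the count of 1 became 0 with median-ratio scaling and 0 with a replicate block (each 0.0401% of all genes). With only the 2 groups compared it was 4 (1.71% of all genes, 213), and at an adjusted p under 0.05 it was 2 (4.67%). It was 6 without Sel1L KO replicate 1 (6.09%), and 0 or 1 without another library (0.00802% to 0.249%). In Sel1L KO BAT, 1 passed at an adjusted p under 0.05 (0.882%). Replicate numbers do not pair the BAT libraries: deviations with the same number correlated at -0.06 to 0.08 (7 pairs), and others at -0.09 to 0.06. With the block Srprb had a limma adjusted p of 0.0436. The block changed no adjusted call of a member in HEK293T.

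Scaling turned the sign of SPCS1 in SEL1L KO cells (0.030), Spcs1 in Hrd1 KO BAT (-0.12) and, between the BAT knockouts, Ssr1 (-0.015), Ssr4 (-0.14), Spcs1 (-0.12), Spcs2 (-0.12) and Spcs3 (-0.17). Leaving out a library turned the sign of SSR1 in HRD1 KO (-0.27 to 0.68), of SSR1 (-0.033 to 0.51), SSR2 (-0.0078 to 0.27) and SPCS1 (-0.12 to 0.13) in SEL1L KO, of SSR1 (-0.52 to 0.44), SPCS2 (-0.043 to 0.24) and SPCS3 (-0.027 to 0.29) between the HEK293T knockouts, and of Sec61b (-0.30 to 0.12), Ssr3 (-0.27 to 0.28), Spcs2 (-0.038 to 0.58) and Spcs3 (-0.17 to 0.48) between the BAT knockouts. The cause was not tested. None of these values passed a threshold.

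Over all genes, calls in HRD1 KO cells numbered 9, 25 with the block and 2 to 18 without a library; in SEL1L KO cells 5, 12 and 0 to 9; between them 0, 2 and 0 to 13. In Hrd1 KO BAT there were 46 (36 higher, 10 lower), 5 with scaling (0 higher, 5 lower), 5 with the block, 759 without Sel1L KO replicate 1 and 1 to 31 without another library; in Sel1L KO BAT 13, 1, 1, 61 and 1 to 7. Where a left-out library leaves 1 Hrd1 KO library, that library is assumed to vary like the other groups. Depth in reads is unknown, and 2 Hrd1 KO mice limit that group.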
